A study of Mus musculus with 6 samples.

Results

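The olfactory receptor genes of mouse chromosomes 9 and 11 encode G-protein-coupled receptors that bind odorants on the cilia of sensory neurons of the nose. They were taken as all protein-coding genes of these chromosomes in the mm10 RefSeq annotation (GRCm38.p6) whose symbol is Olfr followed by a number, which gave 213 genes, 130 on chromosome 9 and 83 on chromosome 11, out of 18355 autosomal protein-coding genes with a timing value. Each gene took the value of the sequencing window nearest its midpoint, and genes whose midpoints lay less than 1 Mb apart were joined, which gave 8 clusters.

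The study sequenced the genomes of proliferating mouse myeloid lines, made immortal by HoxB8 and chosen by growth in GM-CSF, a cytokine of the myeloid lineage. Per the labels, 3 samples were Recql4 -/- Klhdc3 -/- and 3 were WT. The design text gives a division time of 15 to 18 h and over 25% of the culture in S phase. No source used here says if same-genotype samples grew as separate lines, and DNA carries no RNA marker by which the myeloid label could be checked. The 6 columns of values had no names and no label tied one to a sample, so they are called profiles A to F, none is a known replicate of another, and the double mutant was not compared with the wild type. The depth of each library is unknown.

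In growing cells, DNA that replicates early in S phase is present in more copies than DNA that replicates late, so sequencing depth along a chromosome follows the order of replication. Olfactory receptors form the largest gene family of the mouse and lie in tandem arrays on many chromosomes. Each sensory neuron expresses 1 allele of 1 receptor gene, and in other tissues the arrays are silent as a rule. Silent arrays rich in A and T often belong to late replicating domains.

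Both deposited tables were used. The first holds a level for each window of about 10 kb, here called the raw level, with an autosomal median of 1.98 over the 6 profiles. Its unit is not stated in the sources used, and it is taken as a normalised copy level from its values. The second holds a smoothed timing score in autosomal SD units, centred on 0 in each profile, with higher scores for earlier replication. Neighbouring genes share the smoothing, so the scores of a cluster are not independent measurements. The 213 genes lay in 207 distinct windows, with gene midpoints at most 6.15 kb from the window centre, and each had a score and a raw level in all 6 profiles. Single windows departed from the score, with raw levels scattered around a straight line on the score by an SD of 0.124 (0.123 to 0.128) on chromosomes 9 and 11. Some departures recurred in all 6 profiles, as in neighbours Olfr849 (raw level 1.96 to 2.13) and Olfr850 (1.56 to 1.68). Agreement among profiles does not remove such departures.

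Promoter sequences of the earliest and latest receptor genes are printed as examples of base composition. RefSeq promoters (build GRCm38.p6, 250 bases before to 50 after the transcript start) were given for 181 of the 213 genes. The 213 genes had a median length of 948 bases. An annotated start may therefore lie near the coding sequence, and these bases may miss the true promoter. The earliest and the latest gene of each chromosome that had 1 promoter entry are printed here 5′ to 3′ on the strand of the gene, with any TAATTA in capitals. They are Olfr986 (chr9:40186829-40187128, plus strand) and Olfr843 (chr9:19249414-19249713, minus strand), then Olfr225 (chr11:59612716-59613015, plus strand) and Olfr393 (chr11:73848074-73848373, minus strand).
Olfr986: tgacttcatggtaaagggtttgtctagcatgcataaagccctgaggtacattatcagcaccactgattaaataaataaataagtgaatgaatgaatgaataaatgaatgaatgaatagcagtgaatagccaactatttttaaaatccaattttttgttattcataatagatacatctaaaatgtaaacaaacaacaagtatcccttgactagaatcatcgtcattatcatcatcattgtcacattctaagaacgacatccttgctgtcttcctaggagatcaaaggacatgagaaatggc
Olfr843: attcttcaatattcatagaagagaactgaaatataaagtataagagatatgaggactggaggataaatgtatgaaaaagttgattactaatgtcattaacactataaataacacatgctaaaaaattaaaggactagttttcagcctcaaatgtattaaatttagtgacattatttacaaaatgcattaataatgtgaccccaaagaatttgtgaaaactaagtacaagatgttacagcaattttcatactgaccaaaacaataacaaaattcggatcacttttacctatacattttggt
Olfr225: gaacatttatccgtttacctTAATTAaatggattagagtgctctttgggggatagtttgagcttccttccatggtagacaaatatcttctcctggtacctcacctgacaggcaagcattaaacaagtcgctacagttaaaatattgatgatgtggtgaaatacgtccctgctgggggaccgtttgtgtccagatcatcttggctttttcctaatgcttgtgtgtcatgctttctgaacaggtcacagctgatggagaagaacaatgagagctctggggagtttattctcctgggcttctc
Olfr393: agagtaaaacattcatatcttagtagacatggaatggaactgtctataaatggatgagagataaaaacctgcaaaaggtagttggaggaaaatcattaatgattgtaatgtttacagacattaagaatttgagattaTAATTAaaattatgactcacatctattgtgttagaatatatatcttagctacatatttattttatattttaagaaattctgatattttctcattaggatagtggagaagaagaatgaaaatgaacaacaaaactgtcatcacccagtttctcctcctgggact
Olfr225, the earliest, had a promoter of 43.7% G+C with 4 CpG dinucleotides, whereas the late Olfr393 and Olfr843 had 29.0% and 27.3% G+C with 0 and 1 CpG. The promoter of Olfr986 was 32.7% G+C with 2 CpG, and this gene lies at the edge of an array of mostly late genes. The printed promoters are single genes and do not stand for their arrays.

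The receptor genes of chromosome 9 lay in late replicating DNA, and most of those of chromosome 11 in earlier replicating DNA. The median score of the 130 genes of chromosome 9 was -1.32, -1.33, -1.31, -1.16, -1.25 and -1.19 in profiles A to F, against 0.51, 0.49, 0.47, 0.49, 0.54 and 0.34 for the 83 genes of chromosome 11. The medians of the 2 chromosomes did not overlap in any profile, and chromosome 9 minus chromosome 11 was -1.79 (-1.83 to -1.54). The raw level averaged 1.86 (1.83 to 1.88) over the genes of chromosome 9 and 2.03 (2.03 to 2.05) over those of chromosome 11, so that the level of the chromosome 9 genes was 91.1% (90.1% to 92.6%) of that of the chromosome 11 genes. Here and below, a value followed by a range is the median over the 6 profiles with the lowest and highest profile.

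Of the 213 genes, 138 (64.8%) scored below 0 in every profile, 63 (29.6%) above 0 in every profile and 12 changed sign among profiles, where 15.5% of all autosomal protein-coding genes scored below 0 and 76.2% above 0 in every profile. On chromosome 9, 122 genes were below 0, 2 above and 6 mixed. On chromosome 11, 16 were below 0, 61 above and 6 mixed. All 16 late genes of chromosome 11 lay in a single cluster. Raw levels over 100 kb were also rescaled by the mean and SD of 100-kb bins. On these, 14 genes of chromosome 11 were below 0 in every profile and 47 above, and on chromosome 9 125 and 2.

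The chromosomes as a whole did not differ by as much. The mean score over all windows was 0.18 (0.08 to 0.22) on chromosome 9 and 0.45 (0.33 to 0.47) on chromosome 11. The receptor genes of chromosome 9 had a median of -1.28 (-1.33 to -1.16), against 1.00 (0.83 to 1.04) for the 1062 other protein-coding genes of that chromosome. On chromosome 11 the receptor genes stood at 0.49 (0.34 to 0.54), against 1.09 (0.92 to 1.12) for 1519 other genes. The median score of the receptor genes was therefore later than that of the other genes of the same chromosome on both, in each profile. This does not hold for every receptor gene.

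Set beside the larger receptor groups of other chromosomes, the 213 genes had a median of -0.71 (-0.89 to -0.57). Those of chromosome 2 stood at -1.18 (-1.28 to -0.95; 282 genes) and those of chromosome 7 at -0.56 (-0.58 to -0.49; 239 genes). The remaining 290 autosomal receptor genes stood at -0.31 (-0.47 to -0.24). Of the genes of chromosome 2, 93.6% were below 0 in every profile, close to the 93.8% of chromosome 9, and of those of chromosome 11 19.3% were. No test was made of these differences, since genes of an array are not independent. Given 1 value per cluster in place of 1 per gene, the 213 genes had a median of 0.55, because 6 of the 8 clusters lie on chromosome 11.

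**Figure D1:**
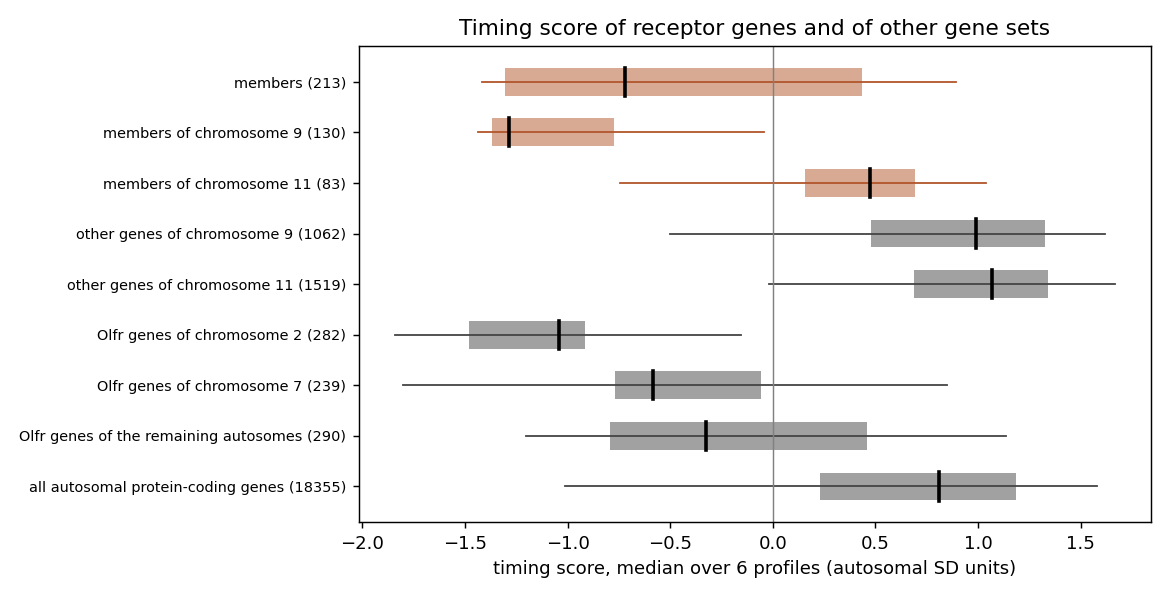
Timing score (median over the 6 profiles, in autosomal SD units) of the receptor genes of chromosomes 9 and 11 ("members") and of other gene sets, with the number of genes in brackets. Boxes run from the 25th to the 75th percentile of genes, thin lines from the 5th to the 95th, and black bars mark the median gene. The chromosome 9 genes lie almost wholly below 0, while the box of the chromosome 11 genes lies above 0 and below the medians of the other genes of both chromosomes.

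The clusters are named here by chromosome and order. On chromosome 9, cluster 9a ran from Olfr24 to Olfr18 (18754692 to 20336094, 35 genes) and 9b from Olfr160 to Olfr986 (37711348 to 40188094, 95 genes). On chromosome 11, 11a ran from Olfr1396 to Olfr1380 (49112777 to 49564858, 19 genes), 11b from Olfr1378 to Olfr1375 (50969020 to 51049050, 5 genes) and 11c held Olfr1373 and Olfr1371 (52144593 to 52213987). Cluster 11d ran from Olfr30 to Olfr225 (58454915 to 59614225, 24 genes), 11e from Olfr20 to Olfr412 (73350859 to 74365609, 30 genes) and 11f from Olfr462 to Olfr464 (87888959 to 87915003, 3 genes). The annotation also lists receptor pseudogenes between the genes, 16 in 9a, 31 in 9b and 14 in 11e, against 1, 1 and 2 in 11b, 11c and 11d and none (0) in 11a and 11f. The 3 clusters with the most pseudogenes were the 3 late ones, which also held the most receptor genes.

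The clusters followed nearly the same order in every profile. From early to late the mean scores were 1.13 (0.96 to 1.21) in 11c, 0.93 (0.85 to 0.96) in 11f, 0.77 (0.67 to 0.86) in 11a, 0.62 (0.45 to 0.67) in 11d, 0.46 (0.30 to 0.55) in 11b, -0.20 (-0.32 to -0.02) in 11e, -0.96 (-1.12 to -0.89) in 9a and -1.06 (-1.15 to -0.99) in 9b. Each cluster was earlier than the next in 6 of 6 profiles, except that 9a and 9b changed places in profile C. The ranges over the profiles of neighbours in this order overlapped, apart from 11b and 11e, and 11e and 9a. Cluster 11c replicated earlier than 54.9% of the other genes of chromosome 11. For 11f, 11a, 11d and 11b this share was 39.1%, 29.0%, 22.2% and 15.5%, so these were later than most of them. Cluster 11e was later than all but 1.71% of the other genes of chromosome 11. Cluster 9a was later than all but 1.79% of the other genes of chromosome 9, and 9b than all but 1.41%.

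**Figure D2:**
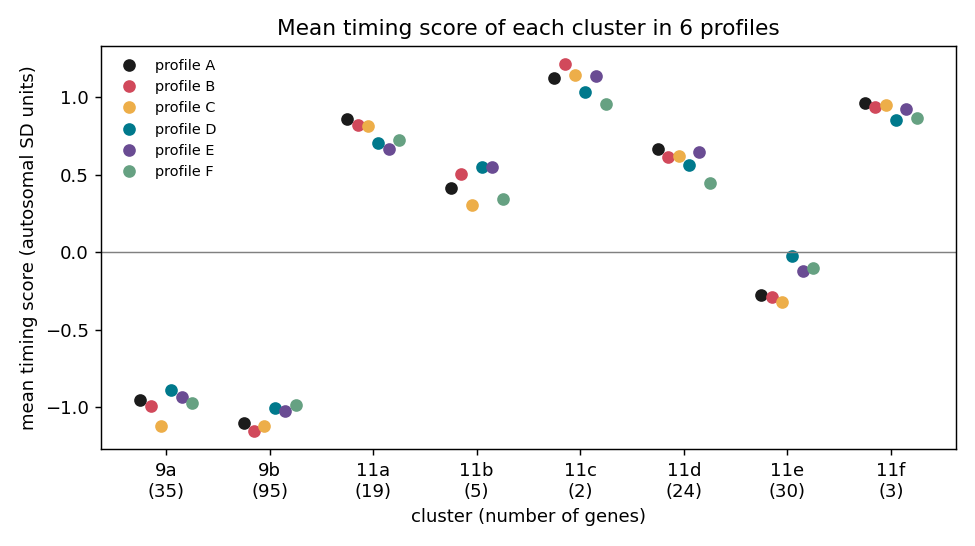
Mean timing score (vertical axis, autosomal SD units) of each cluster, with its number of genes in brackets, and 1 point for each of the profiles A to F. The points of 9a and 9b lie between -1.15 and -0.89, those of 11e between -0.32 and -0.02, and those of the other 5 clusters above 0.

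Raw levels, which had not been smoothed, were lowest in 9a and 9b too. The mean raw level over the windows of the genes was 1.88 (1.86 to 1.89) in 9a and 1.85 (1.82 to 1.87) in 9b. On chromosome 11 it was 2.10 (2.07 to 2.14) in 11a, 1.98 (1.95 to 2.03) in 11b, 2.13 (2.08 to 2.18) in 11c, 2.06 (2.03 to 2.08) in 11d, 1.97 (1.96 to 2.00) in 11e and 2.06 (2.04 to 2.14) in 11f. With these raw levels rescaled by the mean and SD of 100-kb bins, cluster 11e stood at 0.01 and not below 0. Over every window between its first and last gene the raw level was 1.93 (1.92 to 1.94), against the autosomal median of 1.98.

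**Figure D3:**
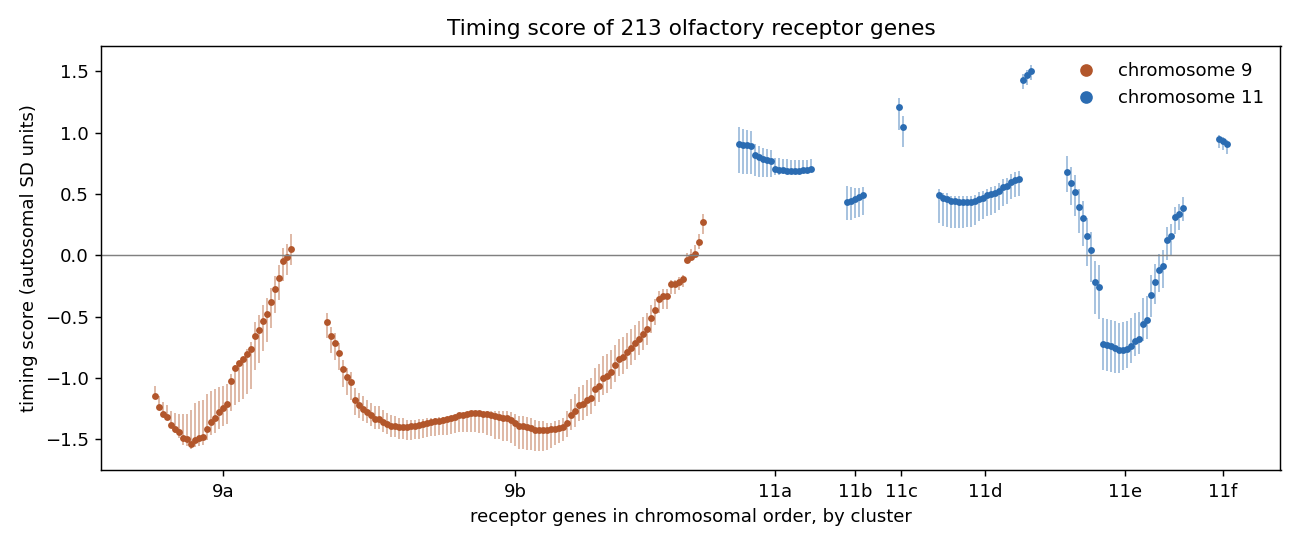
Timing score of each of the 213 receptor genes (vertical axis, autosomal SD units) in chromosomal order within the 8 clusters. Points are medians over the 6 profiles and vertical lines run from the lowest to the highest profile. The genes of 9a, 9b and 11e trace valleys. Those of 11a, 11b, 11c and 11f differ little within their cluster and lie above 0, and 3 genes of 11d stand apart from the rest.

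Cluster 9b, the largest array, filled a broad late valley. Its upper edge, Olfr986, was the earliest gene of the cluster and scored 0.34, 0.28, 0.28, 0.18, 0.26 and 0.18 in profiles A to F. Its latest gene, Olfr938 (39077796 to 39078743), scored -1.46, -1.59, -1.49, -1.38, -1.35 and -1.38. The floor of the valley was nearly level: Olfr25 had a median of -1.40, Olfr918 -1.29 and Olfr938 -1.42. The score of Olfr938 minus that of Olfr986, 1109 kb away, was -1.69 (-1.87 to -1.56), or -0.15 per 100 kb. At the lower edge Olfr160 stood at -0.55 (-0.67 to -0.47). The earliest and latest genes of a cluster were picked by their scores, so the values at them are a description. The raw level averaged over the 100 kb around Olfr938 was 1.75 (1.73 to 1.80), against 1.99 (1.95 to 2.02) around Olfr986, that is 87.6% (85.9% to 90.7%), and lower in 6 of 6 profiles.

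The valley of 9b was bounded by earlier DNA on both sides. Panx3, a pannexin channel gene 42.1 kb below the cluster, scored -0.43 (-0.54 to -0.36), and Zfp202, a zinc finger gene 4.22 kb above it, 0.33 (0.22 to 0.40). At 250 to 500 kb from the cluster the mean score was 0.36 (0.10 to 0.46) on the lower side and 0.99 (0.77 to 1.19) on the upper side. Below the cluster the score first crossed 0 at 204 kb (174 to 280 kb). Of the 3 other genes inside 9b, Vwa5a (-1.29) and AW551984 (-1.03) were late and Tmem225, near the upper edge, was at 0.17.

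Cluster 9a filled a late valley with a shallow lower side and a higher upper side. Its latest gene, Olfr843 (19248357 to 19249463), scored -1.56, -1.58, -1.57, -1.26, -1.51 and -1.46 in profiles A to F, and was the latest of all 213. Its earliest, Olfr18 (20313892 to 20336094) at the upper edge, scored 0.17, 0.14, -0.07, -0.01, 0.12 and -0.08, so that its sign differed among profiles. On the raw level over 100 kb, Olfr843 stood at 1.68 (1.66 to 1.72), against 1.92 (1.88 to 1.94) at Olfr18, which is 87.6% (85.5% to 90.0%). Rescaled, that level puts Olfr18 itself at -0.34, on the late side.

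On the lower side 9a did not end at an early border. Muc16, a mucin gene 79.9 kb below the cluster, scored -0.85 (-0.88 to -0.75), DNA 250 to 500 kb below scored -0.69 (-0.79 to -0.51), and DNA 500 to 1000 kb below was later again at -1.07 (-1.34 to -0.75). The score first crossed 0 at 2462 kb (2225 to 2623 kb). On the upper side Zfp560, a zinc finger gene 9.04 kb away, scored 0.14 (-0.01 to 0.26), and DNA 500 to 1000 kb above scored 1.44 (1.35 to 1.52). Zfp317, the only other gene inside the cluster, was late at -1.13.

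Cluster 11e formed a narrow valley in early replicating DNA. Olfr20, its lower edge and earliest gene, scored 0.65, 0.69, 0.51, 0.81, 0.75 and 0.67 in profiles A to F. Olfr393 (73847185 to 73848123), its latest, scored -0.86, -0.87, -0.96, -0.55, -0.68 and -0.58. The score of Olfr393 minus that of Olfr20 was -1.45 (-1.56 to -1.25) across 495 kb, or -0.29 per 100 kb, a steeper gradient than between the latest gene and the upper edge in 9a (-0.15) or 9b (-0.15). From Olfr393 to the upper edge, Olfr412 at 0.39, the gradient was -0.22 per 100 kb.

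The raw level showed the same valley. Over the 100 kb around Olfr393 it was 1.83 (1.82 to 1.85), against 2.11 (2.06 to 2.11) around Olfr20, that is 86.9% (86.3% to 88.0%), and lower in 6 of 6 profiles. Spata22, a gene of meiotic recombination 4.27 kb below the cluster, scored 0.76 (0.60 to 0.88), and Rap1gap2, a GTPase activator gene 17.7 kb above it, 0.73 (0.65 to 0.82). At 250 to 500 kb the flanks stood at 1.55 (1.40 to 1.70) below and 1.18 (0.95 to 1.27) above. The 2 other genes inside, the zinc finger genes Zfp735 and Zfp616, shared the late position at -0.57 and -0.48.

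Cluster 11e also held the receptor genes that varied most among the profiles. Olfr384 scored -0.38, -0.33, -0.52, -0.08, -0.18 and -0.13 in profiles A to F, a range of 0.43, and Olfr385 and Olfr389 had ranges of 0.43 and 0.43. Profiles A, B and C gave lower scores than D, E and F at each of these 3 genes. The median range was 0.35 over the genes of 11e, 0.33 in 9a and 0.20 in 9b, against 0.24 over the 213 genes and 0.27 over all autosomal genes. Which profile belongs to which genotype is unknown, so this pattern cannot be set against Recql4 or Klhdc3.

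**Figure D4:**
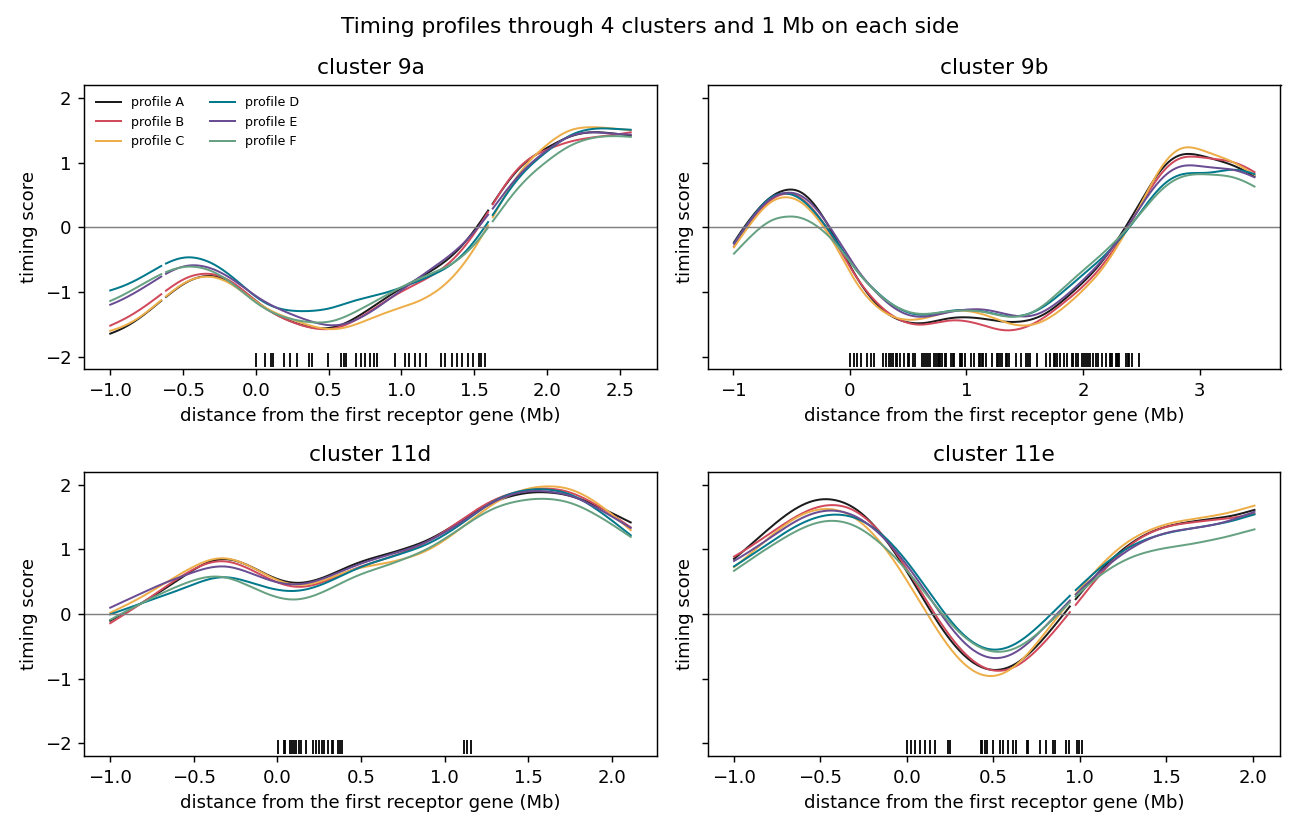
Smoothed timing score (vertical axis, autosomal SD units) of profiles A to F through clusters 9a, 9b, 11d and 11e and 1 Mb on each side, against distance in Mb from the first receptor gene. Black ticks mark the receptor genes. Cluster 11e sits in a valley between early shoulders, 9b in a broad flat one, 9a in one whose lower side stays below 0, and 11d on a ramp above 0. Breaks in the lines are windows without a value.

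Cluster 11d spanned 2 timing levels. Its first 21 genes, from Olfr30 to Olfr311, had medians from 0.44 to 0.62. The latest, Olfr325, scored 0.48, 0.42, 0.45, 0.36, 0.46 and 0.23 in profiles A to F. Beyond a gap of 730 kb, Olfr222 (1.43), Olfr223 (1.47) and Olfr225 were much earlier, and Olfr225 (59612966 to 59614225), the earliest of the 213 genes, scored 1.53, 1.55, 1.44, 1.50, 1.51 and 1.43. The raw level over 100 kb was 2.00 (1.95 to 2.02) at Olfr325, against 2.18 (2.12 to 2.21) at Olfr225, or 92.2% (88.8% to 93.6%). Rescaled, the level over 100 kb had a median below 0 at some of the first 21 genes, lowest at Olfr328 (-0.17).

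The gap in 11d is filled with genes of other families. All 28 other protein-coding genes between its first and last receptor gene scored above 0 in every profile, from 2210407C18Rik at 0.44 to Nlrp3, the sensor of an inflammasome in myeloid cells, at 1.41 next to Olfr222. Wnt3a, a Wnt ligand gene, stood at 1.01, and Trim58, a ubiquitin ligase gene among the first receptors, at 0.45. Nlrp3, Wnt3a and Trim58 were picked after their values had been seen. Lypd9, 1.95 kb below the cluster, took the same window as Olfr30 (0.49), and Mprip, a myosin phosphatase partner 48.2 kb above it, scored 1.69 (1.60 to 1.72).

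Cluster 11a scored above 0 throughout, although later than most other genes of chromosome 11. Olfr1396, its earliest gene, scored 1.03, 0.98, 1.04, 0.82, 0.67 and 0.83 in profiles A to F, and Olfr1385, its latest, 0.78, 0.73, 0.70, 0.67, 0.67 and 0.67. The 19 genes differed by 0.22 in median score. Ifi47, an interferon-induced GTPase gene 15.8 kb below, scored 0.91 (0.67 to 1.05), and 1700024J04Rik, 21.8 kb above, 0.72 (0.70 to 0.79). The 3 other genes inside, among them Mgat1, an enzyme of N-glycan synthesis, at 0.84, had scores like those of the receptors around them.

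The small clusters of chromosome 11 had scores close to those of their nearest genes, with which they share the smoothing. In 11b, Olfr1378, Olfr1377, Olfr51, Olfr54 and Olfr1375 had medians of 0.43, 0.44, 0.46, 0.47 and 0.50, and Zfp354a, a zinc finger gene 10.2 kb above the cluster, stood at 0.51. The DNA on either side was earlier, at 1.55 (1.48 to 1.60) 500 to 1000 kb below and 1.42 (1.26 to 1.53) above. At 250 to 500 kb the score was 0.97 (0.86 to 1.21) below and 1.02 (0.90 to 1.16) above. The cluster thus lay at a local minimum that stayed above 0, and its rescaled raw level was 0.06. In 11c, Olfr1373 scored 1.21 (1.03 to 1.29) and Olfr1371 1.05 (0.89 to 1.14), next to Ppp2ca, the catalytic subunit of protein phosphatase 2A, at 1.26 and Skp1, a subunit of SCF ubiquitin ligases, at 1.00. These housekeeping neighbours and the pair of receptors declined together along the chromosome.

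Cluster 11f lay beside a granule gene of the myeloid lineage. Olfr462, Olfr463 and Olfr464 had medians of 0.95, 0.93 and 0.91, with ranges over the profiles of 0.10, 0.11 and 0.11. Epx, which encodes eosinophil peroxidase and lies 13.4 kb below, scored 0.98 (0.91 to 1.01), and Dynll2, a dynein light chain gene 64.5 kb above, 0.81 (0.74 to 0.86), although its rescaled raw level over 100 kb was 0.17. The raw level of the cluster was 2.14, 2.07, 2.04, 2.04, 2.04 and 2.07 in profiles A to F over 3 windows, with A above the others.

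The genes nearest each cluster had scores close to those of the receptor gene at the edge. The score is smoothed and these genes lay within 79.9 kb of a cluster, so close values were built in. The same holds for other genes inside a cluster. The difference between flanking gene and edge gene was largest at Rap1gap2 and Olfr412 (0.35), at Muc16 and Olfr24 (0.30) and at Mprip and Olfr225 (0.19), and for the other 13 of 16 flanks it lay between -0.09 and 0.12. Inside the clusters, 32 of 37 other genes scored above 0 in every profile and 5 below, and 28 of the 32 lay in 11d. Among the other genes of chromosome 11 as a whole, 91.5% scored above 0 in every profile, and among those of chromosome 9 84.2%. The 5 lay in 9a, 9b and 11e, and no other gene inside 11a or 11d was below 0.

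Promoter composition varied with the cluster. The median G+C content was 30.8% in 9a, 35.3% in 9b and 33.5% in 11e, and 39.0% in 11a, 37.0% in 11b, 40.8% in 11c, 42.3% in 11d and 47.0% in 11f. The medians of the 3 late clusters were lower than those of the 5 early ones, but 11b, 11c and 11f had only 3, 2 and 3 promoters, and single promoters overlapped: they ran from 24.7% to 46.0% in 9b and from 31.0% to 43.3% in 11b. Among the sequences printed above, Olfr843 and Olfr393 had less G+C than Olfr225. The median of each cluster was below those of the other genes of chromosome 9 (58.6%), chromosome 11 (59.0%) and all autosomal genes (57.0%). Receptor starts may lie near the coding sequence, so unlike stretches of genes may be compared here. Of the receptor promoters 31.5% (57 of 181) held no CpG, against 4.71% of all promoters. Receptor promoters of chromosome 2 (32.7% G+C) and chromosome 7 (37.0%) were similar to those of chromosomes 9 and 11 (36.7%).

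Motifs known from receptor promoters were counted in the same windows of 300 bases. TAATTA, a core letter sequence of homeodomain factors such as Lhx2, occurred in 42 of 181 promoters (23.2%), against 5.32% of all promoters, and in 46.7% of those of 9a, the cluster poorest in G+C. CCCNNGGG, a core of the sites of EBF factors, occurred in 4 (2.21%), against 18.1% of all. Both read the same on either strand and cannot overlap each other. Promoters differ in base composition, and the annotated starts of receptor genes may lie near the coding sequence. These shares are therefore a description of letters only.

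**Figure D5:**
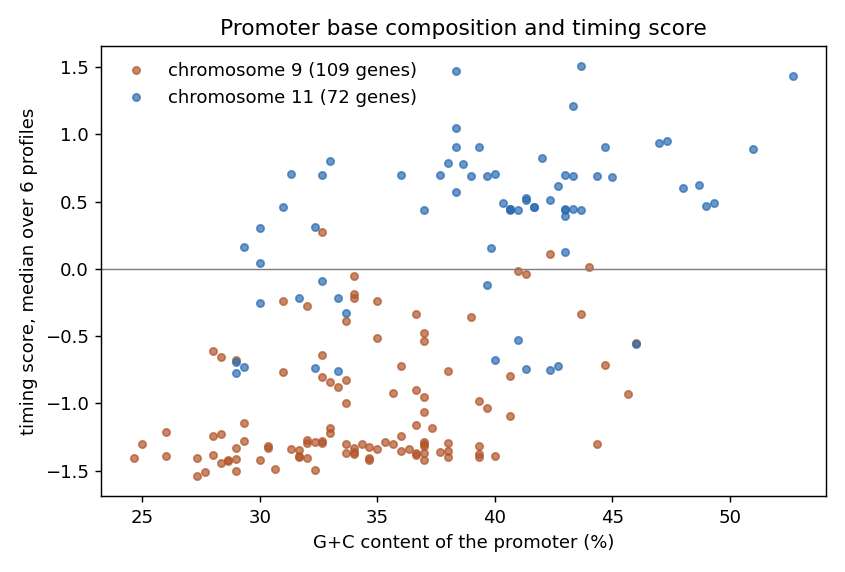
Timing score (median over 6 profiles, vertical axis) of the 181 receptor genes with a promoter entry against the G+C content of the promoter in percent. The 109 genes of chromosome 9 reach from 24.7% to 46.0% G+C and the 72 of chromosome 11 from 29.0% to 52.7%; the 3 points highest on the plot are Olfr222, Olfr223 and Olfr225 of 11d.

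Genes of olfactory signalling and of receptor choice had medians near that of all autosomal protein-coding genes, which was 0.82 (0.70 to 0.87), with 76.2% above 0 and 15.5% below 0 in every profile. Of 18 genes listed for olfactory signalling, not all of them specific to it (Cnga1 is 1 example), 15 had a value. Their median was 0.81 (0.66 to 0.90), with 11 above 0 in every profile and 1 below. Adcy3, Cnga2 and Slc24a4 had no value. Gnb1, a G-protein beta subunit used in many tissues, was the earliest at 1.50, and Pde1c, a phosphodiesterase that breaks down cyclic nucleotides, the latest at -0.44, although its score was 0.25 at its upper coordinate. Omp, the olfactory marker protein of mature sensory neurons, stood at 0.84. Factors that control receptor choice had a median of 0.86 (0.73 to 0.93), with 9 of 10 measured genes above 0 in every profile, from the chromatin remodeller subunit Bptf at 1.32 to the transcription factor gene Ebf2 at 0.01. Trace amine receptors are a small family on chromosome 10 that includes receptors of the nose. Their median was -0.11 (-0.18 to -0.05), with 10 of 15 below 0 in every profile and 5 mixed. They ran from Taar9 at -0.01 to Taar1 at -0.18. The 15 share 1 array, between the levels of 11e and 11b.

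The 6 profiles ordered the receptor genes alike. Over the 213 genes, Pearson's r had a median of 0.993 (0.986 to 0.999) over 15 pairs of profiles, against 0.944 (0.934 to 0.994) over all autosomal genes. Genes of a cluster share smoothed windows and the 8 clusters span a wide range of scores, so these values are a description. All autosomal genes include some whose scores differed among profiles by up to 13.4, against at most 0.43 for the 213 genes. Over all autosomal genes, pairs among A, B and C had r of 0.987 to 0.994, and every other pair 0.934 to 0.961.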

How the data were processed

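Whole-genome sequencing depth of 6 samples was analysed from 2 deposited tables of 237602 windows. The submitters' processing notes name mm10 and Picard 2.23.9. The series title names TIGER, which infers replication timing from read depth. How reads were aligned, corrected for base composition, filtered and smoothed is not stated in the sources used. Per the files' values, the authors' smoothed timing score was standardised over the autosomes (mean 0, SD 1), and the deposited raw level was another, copy-like value. Genes of chromosomes 12 and 19 were not used here, since profiles lacked values there. Genes came from RefSeq and took the nearest window valued in every profile within 50 kb. Columns carried no sample name, so no test was made and values are given per profile; 0 columns were left unused. Rescaled raw levels are raw levels less the mean, divided by the SD, of 100-kb bins with at least 3 windows. The members and lists were chosen with earlier results of these data known. Named were the earliest and latest gene of each cluster and list, all genes of clusters of at most 5, the 3 widest ranges and the flanking genes, of which 1 is not reported here; cluster edges and genes beside gaps were added after values were seen. The window match was tested on simulated data. Python 3.11.15, pandas 2.3.3 and numpy 2.4.6 were used.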

Additional observations from a re-analysis of the deposited data

Results flagged for a closer look

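In 2 of the 40 cluster values, medians and named receptor genes examined, 1 profile stood apart from the other 5 by more than Dixon's critical value for 6 values. Chance flags about 1 in 20 groups, and the 6 profiles hold both genotypes in unknown order. The raw level of cluster 11f was 2.14 in profile A, against 2.04 to 2.07 in the others, over 3 windows. The score of Olfr843, the latest receptor gene, was -1.26 in profile D, against -1.58 to -1.46 in the others. Over all 213 genes a profile stood apart in 9, which was profile C in 7 and profile D in 2. The 7 genes of profile C were neighbours in 9a, from Olfr857 to Olfr866, and share the smoothing, so they are not separate flags.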

How the results depend on the processing

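No paired analysis was possible because value columns lack names and replicate numbers. The 60 values with a profile left out moved by less than 1 SD between profiles, and the depth behind each window is unknown. On rescaled raw levels of the same windows the clusters scored -0.59 (9a), -0.81 (9b), 0.88 (11a), 0.062 (11b), 1.02 (11c), 0.014 (11e, which changed sign) and 0.56 (11f), and the median of the 213 genes was -0.40. With the chromosome mean subtracted, they scored -1.15 (9a), -1.27 (9b), 0.37 (11a), 0.034 (11b), 0.67 (11c), 0.17 (11d), -0.66 (11e) and 0.50 (11f), lower by construction. The mean raw level over every window of the span was 1.82 (9a), 1.81 (9b), 2.08 (11d) and 1.93 (11e). With 1 value per cluster the median changed sign to 0.55. Of 45 named genes, 32 moved by more than 1 SD between profiles, without a change of sign, on rescaled raw levels over 100 kb, 9 moved by less and 4 changed sign. The sign changed for Olfr18 (-0.34), Zfp560 (-0.20), Taar9 (0.13) and Ebf2 (-0.042) on those levels, for Ebf2 at its lower coordinate (-0.0032) and for Pde1c at its upper coordinate (0.25). The cause of these changes was not tested. With the median of all genes as the limit, 195 genes were below it, all 130 of chromosome 9 and 65 of chromosome 11. By construction this limit puts more of all autosomal genes below it than the limit of 0 does. Their share was not counted, so the 195 genes cannot be set against the 15.5% below 0. Joined under 0.5 Mb the genes gave 9 clusters and under 2 Mb 6.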

Other observations

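Windows nearest a receptor gene had higher raw levels than the other windows of the same cluster at the same smoothed score, a comparison chosen after the data were seen. Raw levels were taken as the distance from a straight line on the score, fitted on chromosomes 9 and 11 in each profile. In 9a the 35 windows nearest a gene exceeded the 107 others of the span by 0.066 (0.062 to 0.099), in 9b 88 windows exceeded 142 by 0.046 (0.040 to 0.054) and in 11e 29 windows exceeded 61 by 0.066 (0.048 to 0.082). In 11a and 11d the differences were 0.030 (0.0099 to 0.071) and 0.011 (0.0022 to 0.033). The direction was the same in 6 of 6 profiles in each of these 5 clusters, but the profiles read the same windows and are not independent checks. In 11a and 11d the differences rested on 18 and 23 windows nearest a gene. They were small beside the scatter of single windows (SD 0.124). Among late windows of the same chromosomes outside the clusters, 204 nearest another gene exceeded 5044 that overlap no protein-coding gene by 0.020 (0.011 to 0.030). This reference differs from that of the clusters, where the other windows of the span may hold genes and have any score. The value of 0.020 is therefore not directly comparable with those of the clusters. The cause of the higher raw levels was not tested.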
